A study of Mus musculus with 8 samples.

Results

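The account covers 7 transcription regulators that drive or oppose innate lymphoid, natural killer (NK) and innate-like T cell fates, namely Id2, Id3, Zbtb16, Nfil3, Tox, Tox2 and Eomes. They were taken by gene symbol, and all 7 were among the 23997 genes of the deposited expression table. Regulatory T (Treg) cells were compared between 2 genotypes of C57BL/6 mice, with 4 libraries deposited for each. Bcl11b-deficient cells had the genotype Bcl11b f/f Foxp3-YFP-Cre/+, so both alleles of Bcl11b, which encodes a zinc finger protein that T cells need to keep their identity, were floxed. Bcl11b-sufficient cells had the genotype Bcl11b f/+ Foxp3-YFP-Cre/+ and thus also carried 1 floxed copy. In both groups the Cre was fused to YFP and expressed from 1 Foxp3 allele, so recombination was directed at cells that express Foxp3, and CD4+YFP+ cells were sorted from draining lymph nodes and spleen to a stated purity above 97%. Neither the age of the animals nor whether they were pooled is stated in the sources used here.

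Id2 and Id3 encode inhibitors of DNA binding, small proteins that pair with E proteins (Tcf3, Tcf4 and Tcf12) and keep them off the E-box sites of T and B lineage genes; Id2 is required for NK cells and innate lymphoid cells. Nfil3, a basic leucine zipper factor, and Tox, an HMG-box protein, act early in the development of these lineages, Tox2 is a relative of Tox, Zbtb16 encodes PLZF, the factor of innate-like T cells and of innate lymphoid precursors, and Eomes is a T-box factor of mature NK cells. In Treg cells, Id2 and Id3 together restrain E protein activity. Loss of Bcl11b is known from other work to let developing T cells take on NK-like features.

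Values are FPKM, fragment counts divided by transcript length and by the total of the library, and depth relative to deficient replicate 1, taken from the step sizes of low values, spanned 0.935 to 4.13. In 3 pairs of columns, made of replicates 1 with 3 and 2 with 4 of the deficient group and 1 with 3 of the sufficient group, the spread was 0.982 to 1.01 times what read sampling alone gives, against 1.76 to 2.45 times for the 9 other pairs within a group. Each of these 3 pairs was averaged and counted as 1 library, which left 2 deficient and 3 sufficient libraries. Whether these were separate animals is not stated, and p-values therefore reflect the spread between libraries, which may be technical. In sufficient replicate 4 the small RNA Snora61 alone stood at 31182.5 FPKM and it was listed at 0 in the other 7 columns. Bcl11b itself fell, to 24.2, 19.3, 24.6 and 18.7 FPKM across the deficient replicates, from 1 to 4, against 42.4, 46.5, 42.4 and 39.1 FPKM across the sufficient ones (log2 fold change of -0.95 with an SE of 0.14, limma adjusted p = 0.0238). Foxp3, the factor that defines Treg cells, was abundant at 153 ± 0.517 FPKM in deficient libraries and 187 ± 18.8 FPKM in sufficient libraries (SD, n = 2 and 3), as was Cd4 at 292 ± 4.33 and 260.1 ± 15.9 FPKM.

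None of the 6 regulators tested passed. In the same libraries 8 genes of NK receptors and cytotoxic effectors rose, and 9 of 15 macrophage markers tested rose as well. Leaving out 1 library took calls from both lists. Without sufficient replicate 4, only Cd160, Fcer1g, Klrb1b, Klrd1 and Klrk1 of the 8 and Emr1, Fcgr3 and Spic of the 9 were still called. Fits that left 1 deficient library kept fewer of both. Of the 7, 6 had a mean of at least 1 FPKM and were tested; 0 were called higher and 0 lower in deficient libraries (limma on log2(FPKM + 1), Benjamini-Hochberg adjusted p under 0.05). Among all 10614 genes tested, 1.93% were called higher and 0.697% lower, 2.63% in all. Of these 279 calls 73.5% were higher, and with libraries scaled to equal totals 91.9% of 371 calls were. At an unadjusted p under 0.05 the count was 1 of the 6, Nfil3, against 1891 of all genes tested, or 17.8%. Nfil3 had the lowest log2 fold change, -1.54, and Id2 the highest, 0.51. The median of the 6 was -0.03, against -0.01 for all genes tested. Nfil3 was called lower without sufficient replicate 4, and also when the 8 columns were taken as separate libraries, which counts near-identical columns apart. It was not called with robust empirical Bayes or without a filter on low values. The libraries of 2 of the 6 did not overlap between the groups, against 36.7% of all genes tested, namely 1 higher (Id2) and 1 lower (Nfil3).

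**Figure D1:**
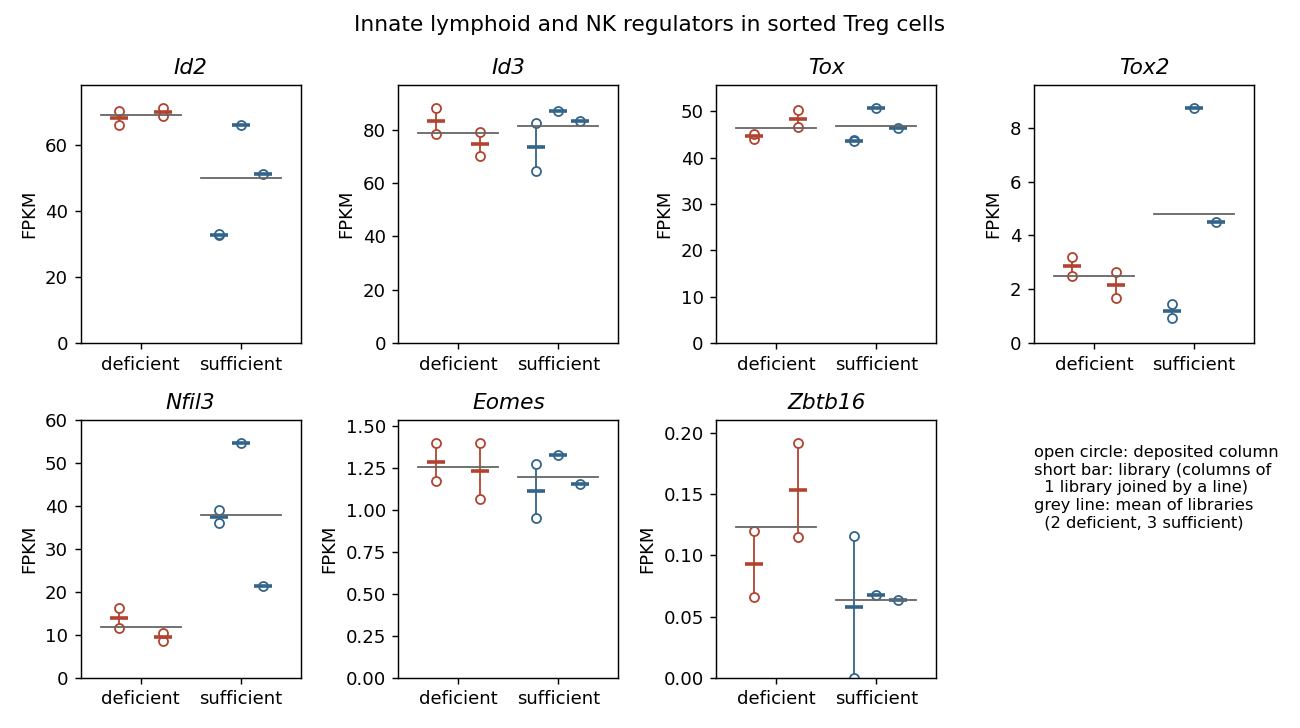
FPKM of each of the 7 regulators, with deficient libraries left of sufficient ones in every panel; circles are deposited columns, a line joins the columns of 1 library, short bars are libraries and grey lines are group means. Nfil3 lay between 8.53 and 16.2 FPKM in the deficient columns and between 21.4 and 54.6 FPKM in the sufficient ones, while Id3, Tox and Eomes overlapped.

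In order of level, the deficient libraries held Id3 (79.0 FPKM on average), Id2 (69.0), Tox (46.5), Nfil3 (11.7), Tox2 (2.499), Eomes (1.26) and Zbtb16 (0.123). The order was the same in sufficient libraries, at 81.3, 49.98, 46.9, 37.8, 4.80, 1.20 and 0.0632 FPKM. FPKM is scaled by length, so these levels can be set side by side. In the deficient libraries no neighbours in this order overlapped. In the sufficient libraries, Id2 ranged from 32.8 to 66.0 FPKM and overlapped with Tox, which ranged from 43.7 to 50.7 FPKM, and with Nfil3, at 21.4 to 54.6 FPKM. Tox2 in its turn, at 1.18 to 8.73 FPKM, overlapped with Eomes, at 1.11 to 1.32 FPKM. Id3, Id2 and Tox were thus abundant transcripts in these Treg cells, above at least 92.3% of all genes in either group. Zbtb16 was close to the low end of what these libraries could read. Eomes and Tox2 were read at low levels, with roughly 10 to 39 and 4 to 88 fragments per column.

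Nfil3 (ENSMUSG00000056749.7, chromosome 13, 52967209 to 52981073, minus strand in the GENCODE M21 annotation of GRCm38) had 11.7, 8.53, 16.2 and 10.4 FPKM across the deficient replicates, from 1 to 4. Across the sufficient replicates it had 39.0, 54.6, 36.01 and 21.4 FPKM. Every deficient column lay below every sufficient one. The means were 11.7 ± 3.16 FPKM in deficient libraries and 37.8 ± 16.6 FPKM in sufficient libraries (SD, n = 2 and 3), that is, a deficient level of 31.0% of the sufficient one. The estimated log2 fold change was -1.54, with an SE of 0.36 and an adjusted p of 0.0791 by limma, and a 95% interval for the single gene of -2.37 to -0.70. Of the 10614 genes tested, 28 had a lower log2 fold change, and 17.9% had both deficient libraries below all sufficient ones. The exact two-sided permutation test over the 5 libraries gave p = 0.2, where 0.1 is the smallest it can give. The sufficient libraries differed among themselves by 2.55 times from highest to lowest, and sufficient replicate 4 was the lowest of them. Without it the log2 fold change was -1.89 and the gene was called (limma adjusted p = 0.0346). With the 8 columns taken as separate, which counts near-identical columns apart, it was -1.57, also called (limma adjusted p = 0.00352). Nfil3 was not called with robust empirical Bayes (limma adjusted p = 0.191) or without a filter on low values (limma adjusted p = 0.198). Across all alternatives the log2 fold change stayed below 0, between -1.89 and -1.23.

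The promoter windows of Nfil3 and Id2 are shown because these were the tested regulators whose libraries did not overlap between groups. Libraries did not overlap for 36.7% of all genes tested, and neither gene was called over the 5 libraries. The windows are also shown because both hold the letters of an E-box, the kind of site that E proteins bind and Id proteins oppose. RefSeq's promoter table (GRCm38.p6) had entries for 5 of the 7 regulators. The letters searched were CAGNTG on either strand, which reads CANCTG on the other, and a site that matches both was counted once. Each window is 200 bases long and runs from 250 to 51 bases before the RefSeq start, at chr13:52981090-52981289 for Nfil3 and chr12:25096143-25096342 for Id2, both read 5′ to 3′ on the minus strand, with the match in capitals.
Nfil3: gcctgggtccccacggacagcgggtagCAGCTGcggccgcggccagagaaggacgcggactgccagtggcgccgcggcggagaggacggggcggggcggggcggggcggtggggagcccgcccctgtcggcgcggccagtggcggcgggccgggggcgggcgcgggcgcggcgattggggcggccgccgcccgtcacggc
Id2: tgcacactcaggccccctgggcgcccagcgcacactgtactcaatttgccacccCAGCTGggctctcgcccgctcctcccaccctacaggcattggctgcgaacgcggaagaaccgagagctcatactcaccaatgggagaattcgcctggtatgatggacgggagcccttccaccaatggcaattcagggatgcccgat
The match began 223 bases before the start in Nfil3 and 196 bases before it in Id2. The same letters were found in 38.3% of the 32851 windows of this length in the table, and in none of the windows of Id3, Eomes and Tox2. These matches describe the sequence alone.

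Id2 (ENSMUSG00000020644.9, chromosome 12, 25093799 to 25097140, minus strand) had 65.8, 71.0, 70.3 and 68.8 FPKM across the deficient replicates, from 1 to 4. Across the sufficient replicates it had 32.5, 66.0, 33.0 and 51.2 FPKM. The deficient columns were tightly grouped, and the highest sufficient one, replicate 2, reached into their range. The means were 69.0 ± 1.31 FPKM in deficient libraries and 49.98 ± 16.6 FPKM in sufficient libraries (SD, n = 2 and 3). The estimated log2 fold change was 0.51, with an SE of 0.26 and an adjusted p of 0.357 by limma, and a 95% interval of -0.10 to 1.122. Both deficient libraries lay above all 3 sufficient ones, as did those of 18.9% of all genes tested. The estimate rested on 1 library more than on the others, since without sufficient replicates 1 and 3 the log2 fold change was 0.24 (adjusted p = 0.531). Id2 is also expressed in macrophages and dendritic cells, whose markers differed between the same libraries.

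Id3 (ENSMUSG00000007872.3, chromosome 4, 136143497 to 136145755, plus strand) had 88.1, 79.1, 78.6 and 70.3 FPKM across the deficient replicates, from 1 to 4, whereas the sufficient replicates had 82.4, 87.1, 64.5 and 83.4 FPKM. The groups overlapped fully, at 79.0 ± 6.12 FPKM in deficient libraries and 81.3 ± 7.05 FPKM in sufficient libraries (SD, n = 2 and 3). The estimated log2 fold change was -0.04, with an SE of 0.12 and an adjusted p of 0.895 by limma. Its 95% interval, -0.31 to 0.24, spans 0.804-fold to 1.18-fold on this scale.

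The ratio of Id2 to Id3 within a library compares the inhibitors with each other. Id2 stood at 0.816 and 0.936 of the Id3 level in the 2 deficient libraries, and at 0.446, 0.758 and 0.613 of it in sufficient replicates 1 and 3, 2, and 4. The deficient libraries lay above the sufficient ones. On the log2 scale the ratio was -0.19 ± 0.14 in deficient and -0.74 ± 0.38 in sufficient libraries (SD, n = 2 and 3), a difference of 0.55 with an exact two-sided permutation p = 0.2. The deficient-minus-sufficient difference kept its sign in all alternatives run, and was 0.35 when sufficient replicates 1 and 3 were left out.

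Among the E proteins, the partners of Id2 and Id3, the libraries of the groups overlapped for Tcf3 and Tcf12. Tcf3 measured 33.5 ± 6.23 FPKM in deficient libraries and 35.2 ± 3.26 FPKM in sufficient libraries, and Tcf12 measured 35.1 ± 1.06 and 36.3 ± 3.28 FPKM (SD, n = 2 and 3). Tcf4, the E protein of plasmacytoid dendritic cells, measured 1.77 ± 0.595 FPKM in deficient libraries and 0.932 ± 0.141 FPKM in sufficient libraries (limma adjusted p = 0.292). Id1 stood at 1.88 ± 0.684 and 2.33 ± 1.39 FPKM, and Id4 was listed at 0 in all 8 columns. The summed inhibitors Id1, Id2 and Id3 added up to 153.8 and 146.0 FPKM for the deficient libraries, against 109.3, 156.3 and 135.3 FPKM for the sufficient ones. The E proteins added up to 74.4 and 66.2 FPKM in deficient libraries, against 75.3, 76.2 and 66.0 FPKM in sufficient ones. Inhibitor transcripts exceeded E protein transcripts in every library, with a log2 ratio of 1.08 ± 0.0642 in deficient and 0.86 ± 0.29 in sufficient libraries (difference 0.22, exact two-sided permutation p = 0.4). This difference was 0.06 without sufficient replicates 1 and 3. Of the 9 genes of the E protein and Id list, 7 were tested, with 0 higher and 0 lower and a median of -0.04 on the log2 scale. The lowest adjusted p among them belonged to Lyl1, a basic helix-loop-helix factor of blood progenitors, at 6.49 ± 0.0727 FPKM in deficient libraries and 2.71 ± 1.23 FPKM in sufficient libraries (log2 fold change 1.06, limma adjusted p = 0.092). Lmo2, an adaptor of such factors, had an adjusted p of 0.283 in the same test, and Ldb1, which binds it, 0.34.

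**Figure D2:**
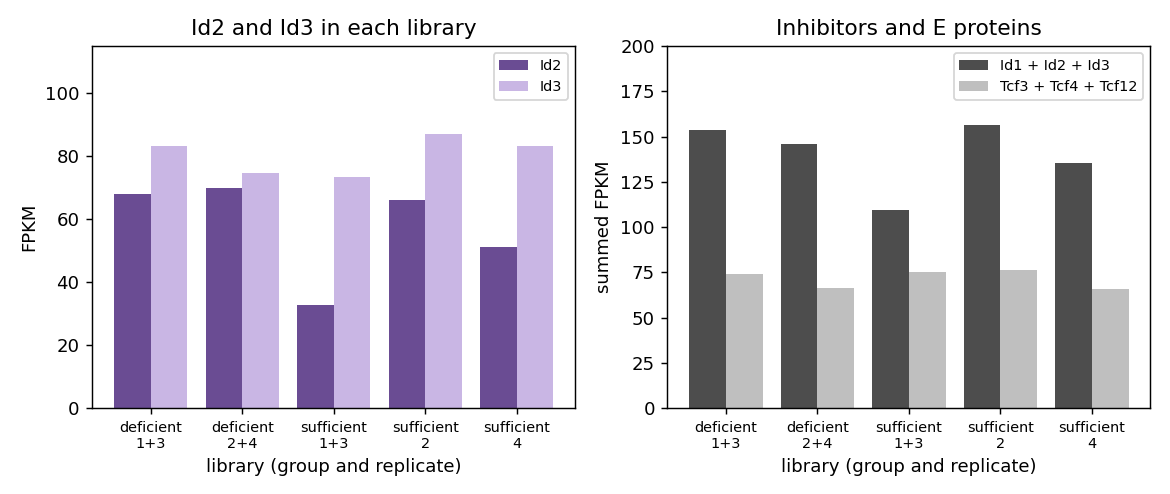
Id2 and Id3 (left, FPKM) and the summed inhibitors and E proteins (right, summed FPKM) in the 2 deficient and 3 sufficient libraries. Id2 was lowest, at 32.8 FPKM, in sufficient replicates 1 and 3, and the dark bars exceed the light ones in every library on the right.

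Genes that E proteins are known to control in lymphocytes gave 1 higher and 1 lower of 8 tested. Over all genes tested the shares were 1.93% and 0.697%. The median log2 fold change of the 8 was 0.13. Hes1, a transcriptional repressor that is also a target of Notch, rose to 11.7 ± 4.58 FPKM in deficient libraries, against 0.799 ± 0.373 FPKM in sufficient ones (log2 fold change of 2.79 with an SE of 0.28, limma adjusted p = 0.00959). Cdkn1a, an inhibitor of cyclin-dependent kinases, fell to 1.71 ± 0.0479 FPKM, against 5.46 ± 1.45 FPKM (log2 fold change of -1.23 with an SE of 0.21, limma adjusted p = 0.0341). Socs3, a feedback inhibitor of cytokine signalling, measured 65.4 ± 13.2 FPKM in deficient libraries and 91.3 ± 6.05 FPKM in sufficient libraries (adjusted p = 0.143 in the same limma fit). Cxcr5, the receptor that brings cells to B cell follicles, measured 9.18 ± 2.77 and 14.8 ± 5.73 FPKM (limma adjusted p = 0.342).

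Tox (ENSMUSG00000041272.11, chromosome 4, 6686353 to 6991557, minus strand) varied least of the regulators between columns. It had 44.1, 50.3, 45.1 and 46.6 FPKM across the deficient replicates, from 1 to 4, whereas the sufficient replicates had 43.9, 50.7, 43.6 and 46.4 FPKM. The groups overlapped over their whole range, with means of 46.5 ± 2.71 and 46.9 ± 3.50 FPKM (SD, n = 2 and 3). The estimated log2 fold change was -0.01, with an SE of 0.11 and an adjusted p of 0.969 by limma, and its 95% interval ran from -0.27 to 0.24, that is, from 0.831-fold to 1.18-fold.

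Tox2 (ENSMUSG00000074607.11, chromosome 2, 163203125 to 163324170, plus strand) varied most of the 6 tested. It had 3.20, 2.62, 2.51 and 1.66 FPKM across the deficient replicates, from 1 to 4, whereas the sufficient replicates had 0.913, 8.73, 1.45 and 4.51 FPKM. The deficient values lay inside the range of the sufficient ones, whose libraries differed by 7.37 times. The means were 2.499 ± 0.504 FPKM in deficient libraries and 4.80 ± 3.78 FPKM in sufficient libraries (SD, n = 2 and 3), and the log2 fold change of -0.49 (SE 0.55) did not pass (limma adjusted p = 0.686). Leaving out sufficient replicate 2 gave 0.01, and leaving out sufficient replicates 1 and 3 gave -1.07. The 95% interval ran from -1.79 to 0.81, the widest of the 6. Roughly 4 to 88 fragments per column stood behind its values. Of the other TOX genes, Tox4 measured 24.8 ± 2.47 FPKM in deficient libraries and 29.4 ± 2.78 FPKM in sufficient libraries, and Tox3 was read in 2 deficient columns only, at 0.028 and 0.0695 FPKM.

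Eomes (ENSMUSG00000032446.14, chromosome 9, 118478212 to 118486132, plus strand) was near 1 FPKM in every column. It had 1.40, 1.06, 1.17 and 1.40 FPKM across the deficient replicates, from 1 to 4, whereas the sufficient replicates had 1.27, 1.32, 0.950 and 1.15 FPKM. The groups overlapped, and the estimated log2 fold change was 0.04, with an SE of 0.19 and an adjusted p of 0.936 by limma and a 95% interval of -0.41 to 0.49. Approximately 10 to 39 fragments per column stood behind these values. Tbx21, the related T-box factor of type 1 lymphocytes, measured 2.62 ± 0.230 FPKM in deficient libraries and 1.92 ± 1.48 FPKM in sufficient libraries and overlapped as well.

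Zbtb16 (ENSMUSG00000066687.5, chromosome 9, 48654297 to 48836222, minus strand) stayed under the filter of 1 FPKM in every column and was not tested. It had 0.0658, 0.115, 0.120 and 0.192 FPKM across the deficient replicates, from 1 to 4, whereas the sufficient replicates had 0, 0.0680, 0.116 and 0.0634 FPKM. Multiplied by relative depth, these values were whole multiples of 1 step within a tolerance of 0.04 of each multiple, equal to 1, 2, 7 and 9 steps in deficient and 0, 2, 7 and 4 steps in sufficient replicates 1 to 4. If 1 step is 1 fragment, 19 fragments were read in deficient and 13 in sufficient columns, a ratio of 1.77 per depth with an exact 95% interval of 0.829 to 3.90 that covers counting error only. The interval includes 1 and a difference of up to 3.90-fold, so these counts do not settle whether Zbtb16 differed. The averaged libraries were at 0.0929 and 0.154 FPKM in the deficient group and at 0.0581, 0.0680 and 0.0634 FPKM in the sufficient group. They did not overlap, with p = 0.1 by exact permutation (two-sided), the smallest value possible here. Deficient libraries also lay above all sufficient ones for 18.9% of all genes tested. The sufficient value of 0.0581 FPKM is the average of columns at 0 and 0.116 FPKM. With 0 to 9 steps per column behind these libraries, this p-value does not settle whether Zbtb16 differed either. The deposited columns of the groups overlapped.

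**Figure D3:**
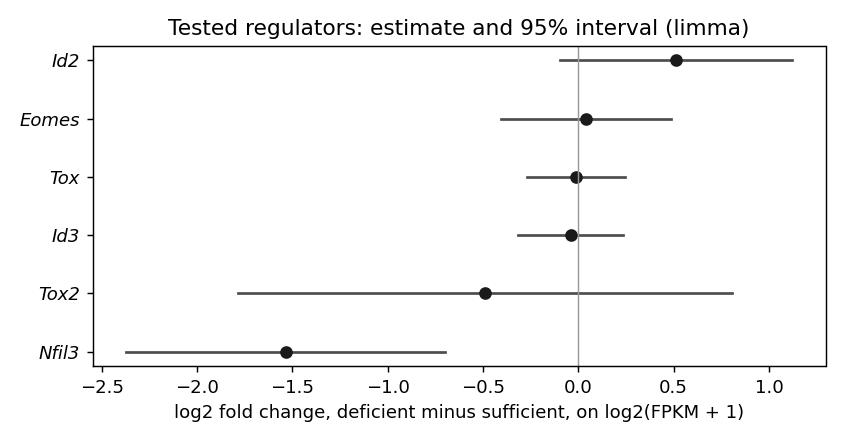
Log2 fold change (deficient minus sufficient, log2(FPKM + 1) scale) of the 6 tested regulators with the 95% interval of each from limma, not adjusted for the number of genes. The interval of Nfil3 runs from -2.37 to -0.70, and those of the other 5 include 0.

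Other transcription factors of NK and innate lymphoid cells were counted as a list. Of 18 tested, 1 was higher and 0 lower, against 1.93% and 0.697% of all genes tested, and the median log2 fold change was -0.10. Runx3, a factor of NK and cytotoxic T cells, rose, with 32.0, 30.8, 30.0 and 32.3 FPKM across the deficient replicates, from 1 to 4, and 17.7, 20.3, 15.0 and 19.3 FPKM across the sufficient ones. All deficient columns lay above all sufficient ones (log2 fold change of 0.72 with an SE of 0.12, limma adjusted p = 0.0341), and the gene was no longer called once any single library was left out, with adjusted p-values of up to 0.202. Gfi1, a zinc finger repressor, measured 13.9 ± 1.37 FPKM in deficient libraries and 19.9 ± 1.87 FPKM in sufficient libraries (limma adjusted p = 0.104). Maf measured 26.8 ± 3.23 and 35.2 ± 2.88 FPKM (limma adjusted p = 0.167), and Irf8, which is abundant in dendritic cells, 15.2 ± 5.29 and 10.2 ± 1.001 FPKM (limma adjusted p = 0.266). Among 8 tested T lineage factors only Bcl11b was called; Tcf7 measured 454.5 ± 25.5 FPKM in deficient libraries and 339.8 ± 13.4 FPKM in sufficient libraries (limma adjusted p = 0.123), Ikzf1 had an adjusted p of 0.179 and Runx1 of 0.193 in the same test.

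Relatives of the 7 regulators by protein family or circuit gave 0 higher and 0 lower of 18 tested, with a median of 0.03. This list held the PAR bZIP factors Dbp and Tef, which bind the same kind of site as Nfil3, and clock genes. Dbp stood at 13.2 ± 2.35 FPKM in deficient libraries and 17.8 ± 5.05 FPKM in sufficient libraries and Tef at 13.5 ± 1.41 and 12.7 ± 2.12 FPKM. The lowest adjusted p-values belonged to the clock repressor Nr1d2 (8.06 ± 0.824 FPKM in deficient libraries and 12.1 ± 1.97 FPKM in sufficient libraries, limma adjusted p = 0.156), to Per1 (22.5 ± 11.1 and 44.3 ± 15.8 FPKM, 0.214), to Per2 (2.76 ± 0.00648 and 1.93 ± 0.0968 FPKM, 0.302) and to Zbtb7b, the CD4 lineage factor (74.2 ± 7.08 and 63.1 ± 1.75 FPKM, 0.318).

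Surface receptors and effector genes of NK cells rose in part. Of the 19 tested genes of the NK and cytotoxic effector list, 8 were higher and 0 lower, against 1.93% and 0.697% of all genes tested. The median log2 fold change was 1.09, against -0.01 for all genes tested. The 8 were Klrd1, Cd160, Fcer1g, Klrb1b, Klrk1, Gzma, Klrb1f and Tyrobp, and their log2 fold changes ran from 1.53 for Klrb1f to 5.77 for Fcer1g. Fcer1g and Tyrobp encode signalling adaptors that macrophages also express. Cd160, a receptor of NK and cytotoxic cells, had 26.9, 37.3, 27.0 and 37.2 FPKM across the deficient replicates, from 1 to 4, and 7.54, 7.85, 6.91 and 7.23 FPKM across the sufficient ones. It was called whichever library was left out. Klrd1, which encodes CD94, rose to 15.8 ± 5.38 FPKM in deficient libraries, against 0.383 ± 0.366 FPKM in sufficient ones, and was called in all but 1 of these fits. Klrb1b, a lectin-like receptor, had 4.58, 4.71, 4.58 and 6.62 FPKM across the deficient replicates, from 1 to 4, whereas the sufficient replicates had 0.845, 0.163, 0.239 and 0.116 FPKM. Leaving out sufficient replicate 4 left 5 calls, leaving out deficient replicates 1 and 3 left 2, and leaving out deficient replicates 2 and 4 left 1. Of 28 named genes that were called, 2 were still called once deficient replicates 1 and 3 were left out, and 1 once deficient replicates 2 and 4 were. For the sufficient libraries, 11 calls were left when replicate 2 was dropped, 12 when replicate 4 was and 19 when replicates 1 and 3 were. Among receptors that define NK cells, Klrb1c, which encodes NK1.1, measured 2.33 ± 1.02 FPKM in deficient libraries and 1.27 ± 0.156 FPKM in sufficient libraries. It was not called (limma adjusted p = 0.315). Its deficient libraries lay above all sufficient ones, as did those of 18.9% of all genes tested. Ncr1 was read at 0.0647 to 0.644 FPKM in deficient columns and 0 to 0.385 FPKM in sufficient columns. Its steps came to 12 in deficient and 3 in sufficient columns, a ratio of 4.84 per depth with an exact 95% interval of 1.31 to 26.7 that covers counting error only. Of the 12, 8 were in deficient replicate 4, and all 3 were in sufficient replicate 2. The libraries of the groups overlapped for Ncr1 (exact two-sided permutation p = 0.3). Klre1 was read in 2 deficient columns, at 0.373 and 0.276 FPKM, and was listed at 0 in the sufficient ones, and Klra8 was read in 1 column of each group, at 0.411 FPKM in deficient replicate 4 and 0.169 FPKM in sufficient replicate 4. In bulk libraries, a change in the number of cells of a type and a change in RNA per cell cannot be told apart.

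**Figure D4:**
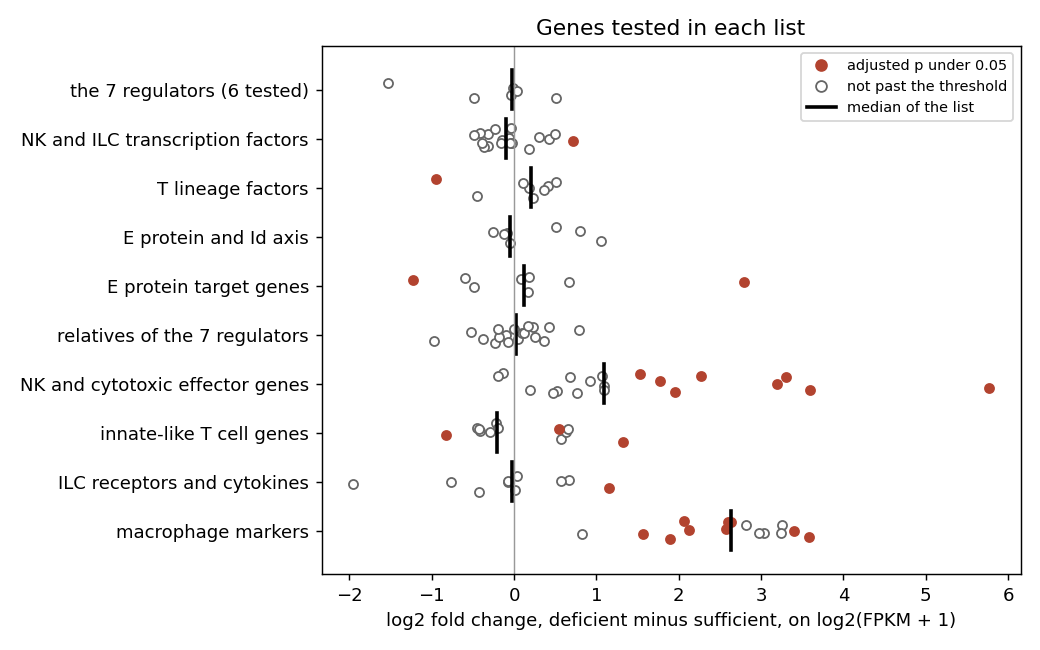
Log2 fold change (deficient minus sufficient, log2(FPKM + 1) scale) of every tested gene in 10 lists; filled points passed the adjusted threshold and black bars are list medians. The 6 tested regulators centre on a median of -0.03, and the NK and cytotoxic effector genes on 1.09.

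Innate-like T cell genes gave 2 higher and 1 lower of 12 tested, with a median of -0.20. Over all genes tested the shares were 1.93% higher and 0.697% lower. Il12rb2, a subunit of the IL-12 receptor, rose to 2.82 ± 0.056 FPKM in deficient libraries, against 0.529 ± 0.145 FPKM in sufficient ones (limma adjusted p = 0.0259). Slamf6, a receptor of the SLAM family that PLZF-dependent T cells use in the thymus, rose to 89.3 ± 1.498 FPKM, against 61.0 ± 1.64 FPKM (limma adjusted p = 0.0357), and Slamf1 of the same family measured 21.8 ± 0.503 and 29.7 ± 2.92 FPKM (limma adjusted p = 0.124). Ifngr1, a chain of the interferon-gamma receptor, fell to 57.1 ± 3.65 FPKM, against 102 ± 11.9 FPKM (limma adjusted p = 0.0265). None of Il12rb2, Slamf6 and Ifngr1 was still called without sufficient replicate 2.

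Markers of other cells differed between the same libraries. Calls below stand beside 1.93% higher and 0.697% lower among all genes tested. Of 16 macrophage markers 15 were tested; 9 were higher (Fcgr3, Emr1, Ly6c2, Itgam, Mrc1, Lyz2, Spic, Hmox1 and Cd68) and 0 lower, and their summed level was 397 to 756 FPKM in deficient libraries and 28.7 to 103 FPKM in sufficient libraries. Of 5 tested dendritic cell markers 2 were higher and 0 lower. Siglech measured 4.32 FPKM in deficient libraries and 0.146 FPKM in sufficient ones, and Batf3 3.82 and 0.499 FPKM. All 10 dendritic cell markers summed to 161.8 to 165.5 and 134.4 to 145.3 FPKM. Bst2, at 120 FPKM in both groups, made up most of these sums. In the NK marker list the sum was 15.6 to 36.8 FPKM in deficient libraries and 2.45 to 5.68 FPKM in sufficient libraries. Gzma was the only one of its genes called and made up most of the deficient sums, at 12.6 and 31.5 FPKM. In the sufficient libraries Gzma was at 0.225 to 2.54 FPKM. Summed B cell markers were 18.5 to 21.2 and 14.7 to 23.9 FPKM, and plasma cell markers 46.2 to 69.1 and 44.9 to 52.9 FPKM. Of 3 tested B cell markers 1 was higher, Ly6d, at 8.84 and 3.61 FPKM (limma adjusted p = 0.0236), and 0 lower. Of 3 tested plasma cell markers 1 was higher, Mzb1, at 2.36 and 0.216 FPKM (limma adjusted p = 0.0356), and 0 lower. Xbp1, at 43.8 and 45.6 FPKM, made up most of the plasma sum. CD8 T cell markers summed to 10.6 to 11.2 and 11.6 to 15.1 FPKM, neutrophil markers to 7.62 to 35.0 and 2.17 to 38.5 FPKM, and erythroid markers to 19.9 to 207.6 and 0.667 to 117.9 FPKM. By library, the macrophage sum was 756 and 397 FPKM where Id2 was 68.0 and 69.9 FPKM in the deficient group. In sufficient replicates 1 and 3, 2, and 4 the macrophage sum was 28.7, 103 and 92.1 FPKM. There Id2 was 32.8, 66.0 and 51.2 FPKM. The sum and Id2 had the same order in the sufficient group and the opposite order in the deficient one. The part of these cells in the levels of Id2, Tcf4, Lyl1, Runx3 or the NK receptor genes was not tested. In the Treg marker list 1 of 9 genes, Ctla4, was lower and 0 were higher. The sum was 1956 to 2108 FPKM in deficient libraries and 2393 to 2610 FPKM in sufficient libraries. Of the 9, 6 did not overlap between groups and were lower, against 17.9% of all genes tested, and 1 was higher, against 18.9%. Next by limma adjusted p were Il2ra (0.0783), Tnfrsf18 (0.081) and Ikzf2 (0.178), all with a log2 fold change below 0.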

How the data were processed

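Gene expression in sorted CD4+YFP+ cells was measured by RNA sequencing. Per the labels' protocols, the kit was a stranded one for total RNA, amplified over 15 PCR cycles, and sequencing used HiSeq or MiSeq instruments. Tools named in the submitters' processing notes are STAR 2.5.1, Cuffdiff 2.2.1, Cuffnorm 2.2.1, cutadapt 1.12, Trim Galore 0.4.2 and FastQC, with mm10 as build. Settings, annotation and the use of strand in counting are not given in those sources. The authors deposited FPKM values, a unit taken from the name of the table and its values. The table has 16 columns of values, of which 8 carry names that match samples; the 8 others were not used.

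Relative depth came from the commonest ratio between low values (up to 1 FPKM) of 2 columns, and the absolute scale from 373 genes with a single transcript in GENCODE M21; both are approximations. Columns of the same group whose log ratios spread by less than 1.5 times read-sampling noise, for genes at 150 to 500 estimated reads, were averaged. The 10614 genes averaging 1 FPKM or more across the 5 libraries entered a limma 3.58.1 fit (R 4.3.3) of log2(FPKM + 1) on group, using limma's trend option, and p-values were two-sided and adjusted by Benjamini-Hochberg over all genes tested. Fold changes are deficient minus sufficient on that scale and understate the change of genes with low values. Single values were compared by exact permutation over the 5 libraries. The fit and the pair comparison were tested on simulated data.

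The regulators and gene lists were chosen with earlier results of these data known. Named genes were the 7 regulators, Bcl11b, Foxp3 and, in each list, the called genes or up to 4 with the lowest adjusted p. B, plasma, CD8 T, neutrophil and erythroid markers are given as summed levels, with Ly6d, Mzb1 and Xbp1 named besides. Some other genes fall outside this rule and were chosen after their values were seen. They are Cd4, Tcf3, Tcf12, Id1, Id4, Tox3, Tox4, Tbx21, Dbp, Tef, Ncr1, Klra8, Klre1, Bst2, Snora61, Klf2, Il7r and Ccl5. Lists are described by counts and medians, with no set test. Gm33460 and Gm11802, annotated opposite Eomes and Tox, were not analysed here, and reads from them cannot be told apart from those of the regulators if strand was not used.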

Additional observations from a re-analysis of the deposited data

How the results depend on the processing

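Every alternative left Nfil3 below 0 and Id2 above 0, while the signs of Id3, Tox, Tox2 and Eomes depended on the setting. Scaling libraries to equal totals shifted the median over all tested genes to 0.18 and gave log2 fold changes of 0.17 for Id3 and 0.20 for Tox. Quantile normalization gave 0.0053 for Id3, 0.0348 for Tox and -0.165 for Eomes. With a pseudocount of 0.1, Zbtb16 was at 0.44. With the 8 columns taken as separate libraries, Nfil3 was at -1.57 and called (limma adjusted p = 0.00352), Tox at 0.0126, 1 regulator was called lower, 1851 genes in all, 37 in the pathway lists and 13 in the NK effector list. With the replicate number as a block on these columns, Id2 was at 0.65 and called (0.0446), Nfil3 at -1.57 (0.0103) and Tox at 0.0126, with 1 regulator called higher, 1 lower, 1418 genes in all and 41 in the pathway lists. The labels do not say what a replicate number stands for. Deviations of same-numbered columns correlated by 0.0293, 0.0566, 0.126 and 0.0911, too little to take the numbers as pairs, although 3 of 4 deficient columns matched their own number best, a hint from the data that the numbers may share something. Both of these fits count near-identical columns as separate libraries. All genes called were 279; the count was 182 with a pseudocount of 0.1 and 99 without a filter, where 7 pathway genes and 5 NK effector genes were called, and robust empirical Bayes also called 5 NK effector genes. Leaving out 1 column or library gave -0.117 to 0.039 for Id3, 0.0399 to 0.118 for Zbtb16, -1.89 to -1.23 for Nfil3, -0.0695 to 0.047 for Tox, -1.07 to 0.0058 for Tox2 and -0.0166 to 0.0921 for Eomes, with 0 to 1 regulators called lower, 8 to 297 genes in all, 1 to 16 in the pathway lists and 1 to 8 in the NK effector list. The lowest counts were without deficient replicates 2 and 4, which leaves 1 deficient library, assumed to vary like the others. The cause of these changes was not tested. Few fragments stood behind Zbtb16 and Eomes, and the sufficient libraries differed widely in Tox2.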

Other observations

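Receptors and cytokines of innate lymphoid cells gave 1 higher and 0 lower of 10 tested, with a median log2 fold change of -0.03. Over all genes tested the shares were 1.93% higher and 0.697% lower. Kit, the stem cell factor receptor, rose to 5.97 ± 0.0688 FPKM in deficient libraries, against 2.18 ± 0.584 FPKM in sufficient ones (SD, n = 2 and 3, limma adjusted p = 0.0347). Areg, a growth factor of tissue Treg cells and type 2 innate lymphoid cells, measured 0.286 ± 0.262 and 4.94 ± 4.63 FPKM (limma adjusted p = 0.132). Itga4, an integrin chain, measured 112 ± 1.18 and 76.1 ± 13.7 FPKM (limma adjusted p = 0.121), and Ltb 418 ± 11.1 and 566 ± 79.4 FPKM (limma adjusted p = 0.196).

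The genes whose levels over the 5 libraries came closest to those of a regulator, by the root-mean-square difference of centred log2(FPKM + 1), were Pmaip1 (0.105), Plagl1 (0.195) and Dusp4 (0.211) for Nfil3, Hip1 (0.0795), G0s2 (0.0984) and Aifm2 (0.103) for Id2, and Nr4a3 (0.233), Ptpn5 (0.250) and Il1rl1 (0.259) for Tox2. For Id3 they were Armcx3, Itfg2 and Tnpo2, for Tox they were Dhcr7, Diap1 and Map2k3, and for Eomes they were Usp24, Atp5sl and Thrap3, all under 0.025. Pmaip1 stood at 4.18 and 2.64 FPKM in the deficient libraries and at 11.7, 15.6 and 5.57 FPKM in sufficient replicates 1 and 3, 2, and 4.

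The sufficient libraries differed among themselves in Id2 and Tox2, with replicates 1 and 3 lowest and replicate 2 highest. Ccl5, picked for its values, had 38.0, 46.9, 32.5 and 44.6 FPKM across the deficient replicates, from 1 to 4, and followed the same order at 9.91, 51.8, 10.6 and 42.8 FPKM in the sufficient ones. Il7r had 125, 119.8, 126 and 119 FPKM across the deficient replicates, from 1 to 4, and ran the other way at 122, 49.9, 128 and 72.6 FPKM in the sufficient ones. Klf2 was high in replicates 1 and 3 and low in replicates 2 and 4 of both genotypes, at 206, 96.2, 194 and 95.2 FPKM in deficient and 272, 128, 264 and 123 FPKM in sufficient replicates 1 to 4.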
